A study of Mus musculus with 26 samples.

Results

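Nnt, Wdfy1, Entpd4 and Ide are genes known to differ between substrains or colonies of C57BL/6 mice, and their signals were described here in subcutaneous white adipose tissue of mice lacking the transcription factor ChREBP. The members were taken by gene name alone: every probe that the array design assigns to 1 of these 4 names was included, 12 probes among 56605 on the array. Of the 12, 11 passed the filter on dim probes, among 38832 probes of 25407 gene names that passed.

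Inbred substrains that descend from one stock drift apart by new mutations, deletions and duplications, and littermate controls differ from mice of another colony for the same reason. Nnt encodes the inner mitochondrial membrane nicotinamide nucleotide transhydrogenase, which uses the proton gradient to make NADPH, and C57BL/6J mice carry a deletion of several exons inside the gene. Wdfy1 encodes an endosomal FYVE-domain protein that takes part in Toll-like receptor signalling, Entpd4 a nucleoside diphosphatase of the Golgi and lysosomes, and Ide the insulin-degrading enzyme, a zinc metalloprotease. A duplication that includes Ide has been described within C57BL/6J colonies.

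RNA of inguinal subcutaneous adipose tissue was hybridised to 26 one-colour arrays with probes of 60 bases. Total KO mice (n = 7), null for Mlxipl and so for both isoforms ChREBPα and ChREBPβ, were set against their own wild types, total WT (n = 7). ChREBPβ KO mice (β KO, n = 5), in which the β-specific first exon had been removed by CRISPR/Cas9, were set against their own wild types, β WT (n = 7). Per the methods the animals of the array experiment were C57BL6/J males, and all 4 groups shared a 24 h fast followed by 18 h of refeeding with food and water holding 20% glucose; ages are not given in the sources used here, nor is the colony history of the total KO line. The arrays' median raw intensity was 59 to 107.5 and the share of spots well above background 70.2% to 76.5%; no spot was saturated. All 8 adipocyte markers were well above background on every array. Their mean log2 intensity was 15.16 to 15.74 in total WT, 15.95 to 16.20 in total KO, 15.80 to 15.96 in β WT and 15.66 to 16.17 in β KO; 7 of the 8 rose in total KO against total WT (median 0.49), and 4 were higher in β WT than in total WT (median 0.40). The 10 lymphocyte markers differed widely between the lines: their mean log2 intensity was 11.25 to 12.98 in total WT, 8.14 to 11.60 in total KO, 7.40 to 8.41 in β WT and 7.37 to 9.09 in β KO. The mean of 6 macrophage markers was 10.68 to 12.40 in total WT, 10.41 to 11.03 in total KO, 11.76 to 12.89 in β WT and 10.98 to 13.11 in β KO. Of these 6, 5 were called higher in β WT than in total WT (median 0.78), where 26.4% of all genes were. All 6 were called higher in β KO than in total KO (median 1.20), where 14.1% of all genes were. The mean of 8 skeletal muscle markers ran from 5.86 to 13.35 over the 26 arrays. In bulk tissue, fewer cells of a type and less RNA per cell cannot be told apart. Mlxipl itself, the targeted gene, had a mean log2 intensity of 16.02 in total WT and 13.81 in total KO, and of 15.70 in β WT and 14.16 in β KO.

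The position of a probe decides what it can see, so 1 probe each of Nnt, Entpd4 and Ide is printed here as the array lists it, in lower case with nothing marked by capitals. Each lies toward the 5′ end of its transcript, while the brightest probe of the same gene lies toward the 3′ end, so that agreement between them is a check on the gene's level. The array annotation gives positions in mouse build mm9: the Nnt probe starts at transcript base 205 (chr13:120193406-120193465, minus strand), the Entpd4 probe at base 366 (chr14:69967249-69967308, plus strand) and the Ide probe at base 1011 (chr19:37389339-37389398, minus strand).
Nnt A_55_P2829145: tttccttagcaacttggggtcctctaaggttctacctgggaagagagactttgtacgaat
Entpd4 A_52_P582907: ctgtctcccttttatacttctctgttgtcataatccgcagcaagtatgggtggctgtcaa
Ide A_66_P107418: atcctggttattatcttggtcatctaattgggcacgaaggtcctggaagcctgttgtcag

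The brightest probes lie at base 4091 of Nnt (A_55_P2144285, chr13:120124335-120124394), base 2969 of Entpd4 (A_55_P1992505, chr14:69984685-69984744) and base 4616 of Ide (A_52_P266530, chr19:37343642-37343701). For Nnt this means that probes near both ends of the transcript were read, and neither was shown here to lie in the deleted exons; they report the amount of transcript and not whether the exons are present. The brightest Wdfy1 probe, A_55_P2070686 (chr1:79723062-79723121), is annotated to a different transcript variant from A_52_P328825 and A_51_P390314. Entpd4 has a near-identical neighbour, Entpd4b, that is not a gene name on this array, so the Entpd4 signal is uncertain to the extent that the probes read both.

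The brightest Nnt probe was higher in the β line than in the total line, in wild types and in knockouts, while the other 2 Nnt probes did not pass the test in wild types. On the brightest probe, the lowest, median and highest log2 intensities were 9.40, 9.67 and 9.92 in total WT, 9.17, 9.37 and 9.68 in total KO, and 9.91, 9.98 and 10.25 in β WT. The 5 β KO arrays read 9.62, 9.95, 10.04, 10.09 and 10.17. Both groups of the β line thus lay above most arrays of the total line, with an overlap of single arrays in each comparison, and the probe was well above background on all 26 arrays. β WT exceeded total WT by 0.34 (log2, SE 0.09, limma adjusted p = 0.00426), or 1.26-fold. β KO exceeded total KO by 0.59 (SE 0.10, limma adjusted p = 0.000117), or 1.51-fold. These comparisons use separate arrays, and this was the only 1 of the 11 member probes called in the same direction in both; of all tested probes, 13.5% were. Within each of the 4 wash batches, β WT was higher than total WT, by 0.20 to 0.54. When the lymphocyte score entered the model, the difference between wild types was 0.56 with a limma adjusted p of 0.102. The score does not overlap between these groups, so the line and the score cannot be told apart there. Macrophage markers were called higher in the β line in both comparisons, and their part in the Nnt difference was not tested.

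Within the total line, Nnt fell by 0.29 in KO against WT (SE 0.09, limma adjusted p = 0.0119), a fold of 0.816, and the arrays of the groups overlapped. The direction held in 3 of 4 wash batches, and when the lymphocyte score entered the model the adjusted p was 0.385. With slide as a fixed block the Nnt difference was -0.22 (limma adjusted p = 0.284). In the β line the difference was -0.04 (95% CI -0.25 to 0.17, limma adjusted p = 0.981). The difference between these 2 effects was 0.25 (limma adjusted p = 0.195), so the KO effects of the lines were not shown to differ. The 5′ Nnt probe printed above was dim. It ran from 5.64 through a median of 5.82 to 6.11 in total WT, 5.58, 5.82 and 5.86 in total KO, and 5.69, 5.99 and 6.17 in β WT, and the β KO arrays read 5.87, 5.91, 6.05, 6.08 and 6.16. Every β KO array was above every total KO array, with a difference of 0.26 (SE 0.09) and a limma adjusted p of 0.032. Of all probes, 12.9% had no overlap between these groups and 26.1% were called. The two-sided exact permutation test gave p = 0.00126, the smallest that 5 against 7 arrays allow. Its β WT minus total WT difference was 0.13 (95% CI -0.04 to 0.30, limma adjusted p = 0.2) and its total KO minus total WT difference -0.08 (95% CI -0.25 to 0.08, limma adjusted p = 0.425), neither of them called. The call between the knockouts was lost when any of 5 single arrays was left out, with adjusted p up to 0.0892. The third Nnt probe, A_55_P2008956, had group means of at most 5.21 and passed no test, with 0.02 in β WT minus total WT (limma adjusted p = 0.909). Over the 26 arrays the 5′ probe correlated with the brightest probe at r = 0.535. The third probe correlated with the brightest at r = 0.255 and with the 5′ probe at r = 0.287.

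**Figure D1:**
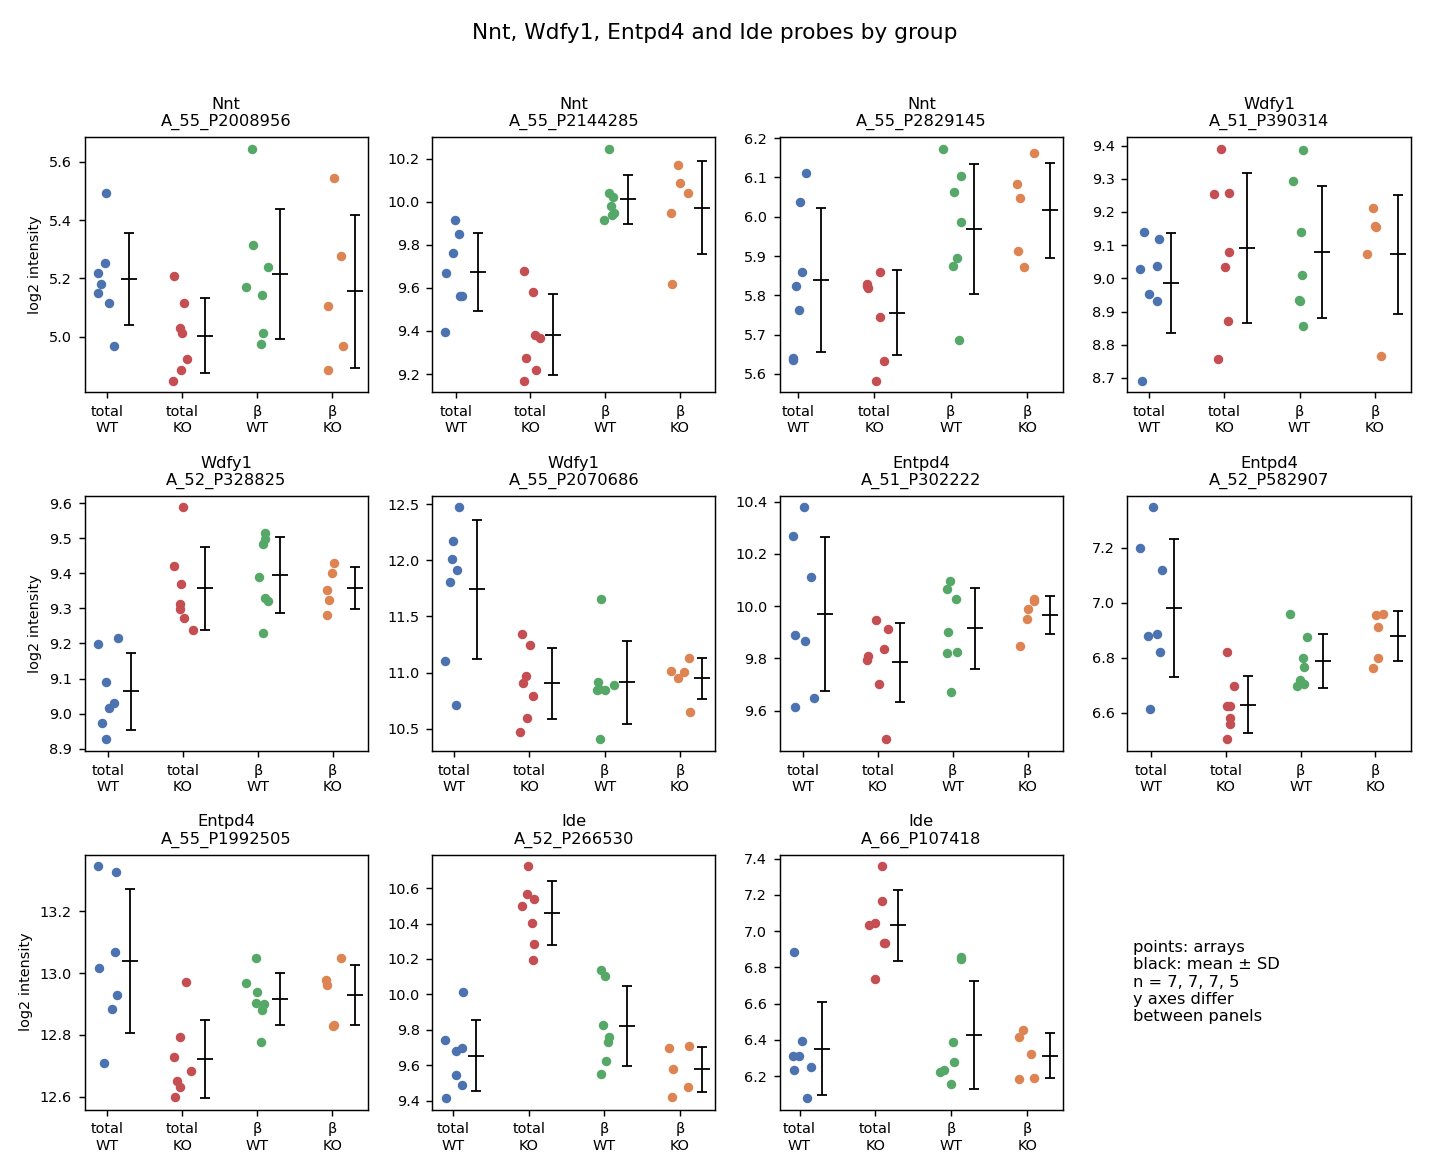
Log2 intensity (y axis, a separate scale in each panel) of the 11 tested probes of Nnt, Wdfy1, Entpd4 and Ide on each array, by group (x axis); black marks are the mean and SD, with n of 7, 7, 7 and 5. The Nnt probe A_55_P2144285 is higher in both groups of the β line, while both Ide probes are high in total KO, with means of 10.46 and 7.03.

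Counting all member probes, 7 of 11 were called between total KO and total WT, 3 higher and 4 lower, where 45.6% of all tested probes were called, 26.3% higher and 19.3% lower. Between β KO and β WT none of the 11 passed limma's test, against 0.0361% of all probes; 1, the brightest Ide probe, had an unadjusted p under 0.05. Between the wild types 3 of 11 were called (background 45.2%), between the knockouts 5 of 11 (background 26.1%), and in the test of the difference between the KO effects of the lines 5 of 11 (background 22.4%). The median difference of the member probes was -0.18 in total KO minus total WT, where that of all probes was 0.05, and 0.07 in β WT minus total WT, where that of all probes was 0.03. The member counts thus lay on both sides of the background. The 2 comparisons of total KO share arrays with the 2 line comparisons and are not independent of them.

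Ide was highest in total KO. Its brightest probe read 9.41, 9.68 and 10.01 (lowest, median, highest) in total WT, 10.19, 10.50 and 10.72 in total KO, and 9.55, 9.76 and 10.14 in β WT. The 5 β KO arrays read 9.42, 9.48, 9.58, 9.69 and 9.71. All 7 total KO arrays lay above every array of the other 3 groups. Total KO exceeded total WT by 0.80 (SE 0.10, limma adjusted p = 5.81e-07), or 1.75-fold, and the groups did not overlap, as was so for 14.2% of all probes. β KO minus total KO was -0.88 (SE 0.11, limma adjusted p = 2.27e-06), again without overlap, against 12.9% of all probes. The adipocyte markers rose in total KO as well (7 of 8, median 0.49), and their part in the Ide difference was not tested. The wild types differed by 0.17 (95% CI -0.04 to 0.37, limma adjusted p = 0.186). In the β line the difference was -0.24 (95% CI -0.47 to -0.02, limma adjusted p = 0.588). The KO effects of the lines differed by -1.05 (SE 0.15, limma adjusted p = 2.22e-05).

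The second Ide probe, at base 1011 and printed above, moved with the first. It read 6.08, 6.31 and 6.89 in total WT, 6.74, 7.03 and 7.36 in total KO and 6.16, 6.28 and 6.86 in β WT, and 6.18, 6.19, 6.32, 6.42 and 6.45 in β KO. A single total WT array, replicate 4 at 6.89, entered the range of total KO. Total KO minus total WT was 0.68 (SE 0.12, limma adjusted p = 7.55e-05), β KO minus total KO was -0.72 (SE 0.13, limma adjusted p = 0.000282), and the KO effects differed by -0.79 (limma adjusted p = 0.00297). Over the 26 arrays the pair correlated with r = 0.933, given as a description, since the arrays share groups. Within wash batches the brightest probe was higher in total KO than in total WT in 4 of 4, by 0.38 to 1.05, and the second probe by 0.001 to 0.95. With slide as a fixed block the second probe had 0.58 in total KO minus total WT (limma adjusted p = 0.0834). Its call between the knockouts was lost in 1 of 15 alternatives (limma adjusted p up to 0.182).

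Wdfy1 gave 2 calls of opposite sign. On A_52_P328825, in the 3′ part of the transcript (base 2511), total WT stood apart: its arrays read 8.93, 9.03 and 9.22, against 9.24, 9.31 and 9.59 in total KO and 9.23, 9.39 and 9.51 in β WT. The β KO arrays read 9.28, 9.32, 9.35, 9.40 and 9.43. Every array of total WT was below every other array. Total KO exceeded total WT by 0.29 (SE 0.06, limma adjusted p = 0.000343) and β WT exceeded total WT by 0.33 (SE 0.06, limma adjusted p = 7.91e-05), without overlap in either (14.2% and 16.1% of all probes); both share the total WT arrays. When the lymphocyte score entered the model, β WT minus total WT was 0.30 (limma adjusted p = 0.189), and with slide as a fixed block total KO minus total WT was 0.22 (limma adjusted p = 0.15). The score does not overlap between the wild types, so the line and the score cannot be told apart there. The knockouts differed by 0.00 (95% CI -0.14 to 0.14). The KO effects of the lines differed by -0.33 (limma adjusted p = 0.0103), with an adjusted p of 0.103 when the lymphocyte score entered the model and 0.349 with slide as a block.

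On the brightest Wdfy1 probe, A_55_P2070686, total WT was instead the highest and most variable group. Its arrays read 10.71, 11.91 and 12.47, against 10.47, 10.91 and 11.34 in total KO, 10.41, 10.85 and 11.65 in β WT and, in β KO, 10.65, 10.95, 11.01, 11.01 and 11.13. All groups overlapped. Total KO minus total WT was -0.84 (SE 0.21, limma adjusted p = 0.00216) and β WT minus total WT was -0.83 (limma adjusted p = 0.00239). The KO effects differed by 0.87 (limma adjusted p = 0.0468), a call lost when any of 20 of the 26 arrays was left out. This probe moved with the lymphocyte markers: the correlation of its deviations from the group means with those of the lymphocyte score was 0.51 over 26 arrays, against -0.07 for A_52_P328825. With the score as a covariate, total KO minus total WT was -0.31 (limma adjusted p = 0.48) and β WT minus total WT was 0.21 (limma adjusted p = 0.805). Between the wild types the score does not overlap, so the line and the score cannot be told apart there. All 10 lymphocyte markers were lower in total KO than in total WT and in β WT than in total WT; their part in the Wdfy1 signal was not tested otherwise. The probe A_51_P390314 (base 1346) had group means of 8.99 to 9.09 and no call, and A_55_P2925193 was well above background on 1 total WT array and 1 β KO array only and was not tested. Over the 26 arrays the brightest Wdfy1 probe correlated with A_52_P328825 at r = -0.530 and with A_51_P390314 at r = -0.234. A_52_P328825 and A_51_P390314 correlated with each other at r = 0.238.

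**Figure D2:**
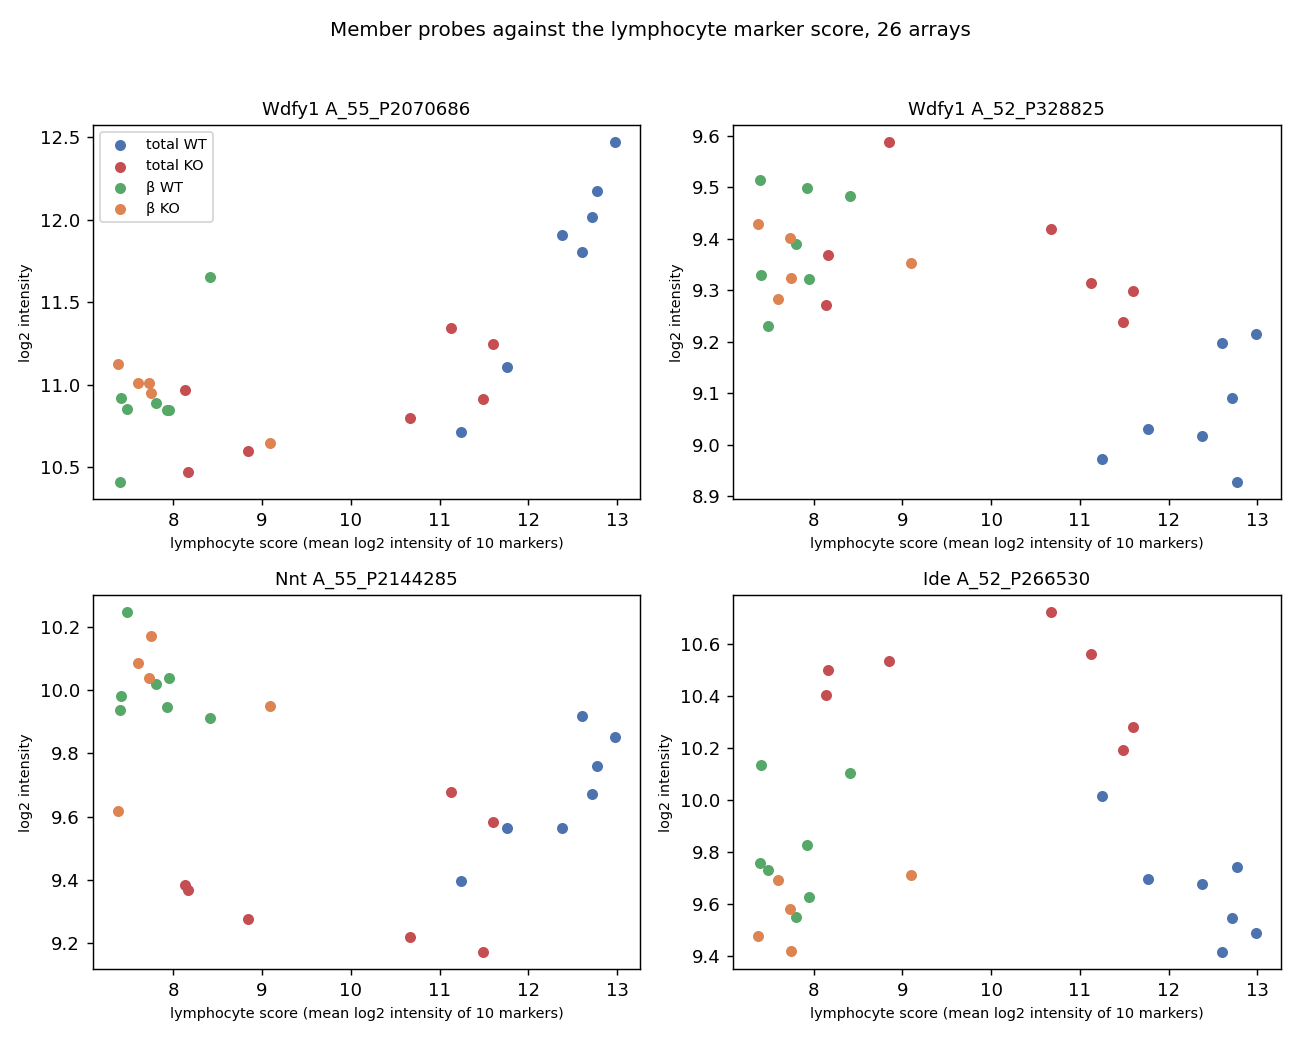
Log2 intensity of 4 member probes (y axis) against the mean log2 intensity of 10 lymphocyte markers (x axis); each point is 1 of 26 arrays, coloured by group. The total WT arrays lie at 11.25 to 12.98 on the score, apart from all β WT arrays (7.40 to 8.41), and the Wdfy1 probe A_55_P2070686 rises with the score within total WT.

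Entpd4 was lowest in total KO. Its brightest probe read 12.71, 13.02 and 13.35 in total WT, 12.60, 12.68 and 12.97 in total KO, and 12.78, 12.90 and 13.05 in β WT, and the β KO arrays read 12.83, 12.83, 12.96, 12.98 and 13.05. The groups overlapped throughout. Total KO minus total WT was -0.32 (SE 0.08, limma adjusted p = 0.00256), a fold of 0.803. With scaling of the median signal to the 75th percentile the adjusted p was 0.101, and with slide as a fixed block it was 0.109. The 5′ probe printed above read 6.61, 6.89 and 7.35 in total WT, 6.50, 6.62 and 6.82 in total KO, and 6.70, 6.77 and 6.96 in β WT, and 6.76, 6.80, 6.91, 6.96 and 6.96 in β KO. Total KO minus total WT was -0.35 on this probe (SE 0.08, limma adjusted p = 0.00133), and the KO effects of the lines differed by 0.44 (limma adjusted p = 0.0131). Between the knockouts it was 0.25 higher in β KO (limma adjusted p = 0.0477), a call that was lost when any of 10 of the 12 arrays was left out, with adjusted p up to 0.101. The third probe, A_51_P302222, showed -0.18 in total KO minus total WT (95% CI -0.39 to 0.03, limma adjusted p = 0.145). Neither the brightest nor the third probe was called for the difference between KO effects (0.33 and 0.24, limma adjusted p = 0.0506 and 0.282). Between the knockouts they were not called either (0.21 and 0.18, limma adjusted p = 0.0893 and 0.244). The 3 Entpd4 probes correlated with r of 0.729 to 0.891 over the 26 arrays.

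**Figure D3:**
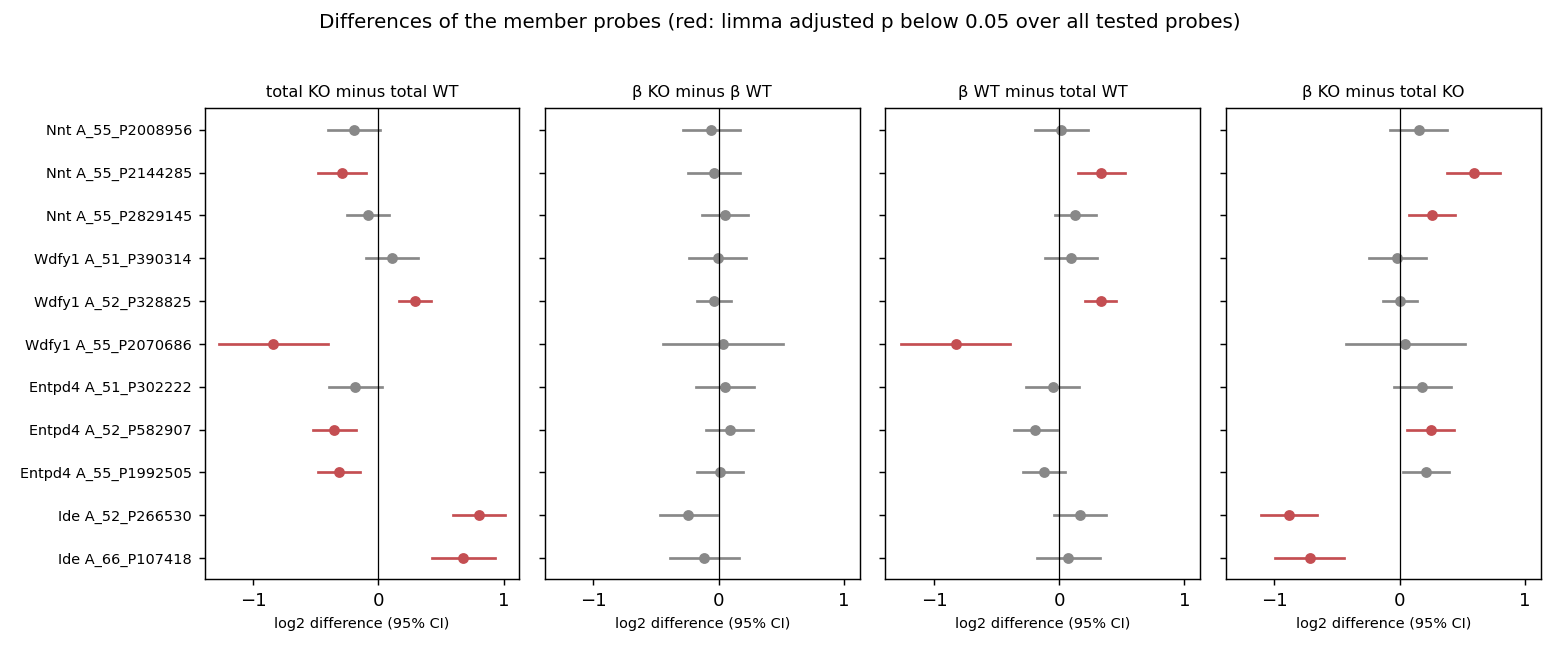
Log2 difference with its 95% CI (x axis) of each tested member probe (y axis) in the 4 comparisons; red marks a limma adjusted p below 0.05 over all 38832 tested probes. In β KO minus total KO the Ide probes lie farthest from 0, at -0.88 and -0.72; in total KO minus total WT, Wdfy1 A_55_P2070686 (-0.84) and the brightest Ide probe (0.80) do, and no probe is red in β KO minus β WT.

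The genes next to the members on the chromosome were described from the array's own coordinates, within 500 kb of a member's probes. This gave 43 tested names, of which 3 are transcript identifiers that the array lists for a member itself. Between total KO and total WT, 22 of the 43 were called (12 higher, 10 lower), or 51.2%, where 45.9% of all genes were called by their brightest probe, 26.2% higher and 19.7% lower; the median was 0.04 against 0.05 over all genes. Without the 3 transcript identifiers of members, 21 of 40 were called. With the lymphocyte score as a covariate 6 of the 43 were called, and of all 38832 probes 5902 were, against 17691 without it. None was called between β KO and β WT by limma, where 0.0472% of all genes were.

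Around Ide, 7 of 10 neighbours were called between total KO and total WT, 5 of them higher, where 45.9% of all genes were called, 26.2% higher. The nearest, 4931408D14Rik, an uncharacterised gene whose probe lies 10.6 kb from that of Ide on the same strand, ranged from 10.65 to 11.64 in total WT and from 11.94 to 12.51 in total KO. Its difference was 1.10 (SE 0.13, limma adjusted p = 2.08e-07), and it was -1.38 in β KO minus total KO (limma adjusted p = 1.24e-07). Fgfbp3, a binding protein of fibroblast growth factors reported to lie in the same duplication as Ide, ranged from 6.91 to 7.19 in total WT, 7.55 to 8.11 in total KO, 7.28 to 7.86 in β WT and 7.18 to 7.48 in β KO. Fgfbp3 had its highest mean in total KO (7.72), as Ide did, and its lowest in total WT. Fgfbp3 rose by 0.72 in total KO (limma adjusted p = 3.24e-07). It was -0.36 in β KO minus total KO (limma adjusted p = 0.0066), and its KO effects differed by -0.92 (limma adjusted p = 1.87e-05). These 3 differences had the same sign as those of Ide. Fgfbp3 was also 0.56 higher in β WT than in total WT (limma adjusted p = 1.05e-05), where Ide was not called. March5, a mitochondrial ubiquitin ligase, rose by 0.60 in total KO (limma adjusted p = 7.12e-06). Btaf1, a regulator of the TATA-binding protein whose probe lies between those of Fgfbp3 and Ide, differed by 0.04 (SE 0.07, limma adjusted p = 0.626). The probes of Cpeb3, March5 and 4931408D14Rik also lie between those of Fgfbp3 and Ide, and Cpeb3 rose by 0.30 in total KO (limma adjusted p = 0.0171). On the other side, Hhex, a homeobox factor of blood and liver cells, fell by 0.91 (limma adjusted p = 0.000367) and Kif11, a mitotic kinesin, fell by 0.63 (limma adjusted p = 0.0007).

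Around Wdfy1, 4 of 5 neighbours were called between total KO and total WT, where 45.9% of all genes were. Ap1s3, a subunit of a clathrin adaptor, fell by 1.89 (limma adjusted p = 0.000119) and stood at -2.79 in β WT minus total WT (limma adjusted p = 7.19e-07). Serpine2, a protease inhibitor, rose by 0.50 in total KO (limma adjusted p = 0.00259) and was 1.42 higher in β WT than in total WT (limma adjusted p = 1.14e-08). Around Nnt, 1 of 5 was called: Paip1, which binds the poly(A)-binding protein, fell by 0.60 in total KO (limma adjusted p = 3.05e-05). Around Entpd4, 10 of 23 were called, near the share of all genes. These 10 include a transcript identifier that the array lists for Entpd4 itself (-0.26, limma adjusted p = 0.0125). The largest difference among the 10 was that of Slc25a37, a mitochondrial iron importer, which fell by 0.52 (limma adjusted p = 0.000713).

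**Figure D4:**
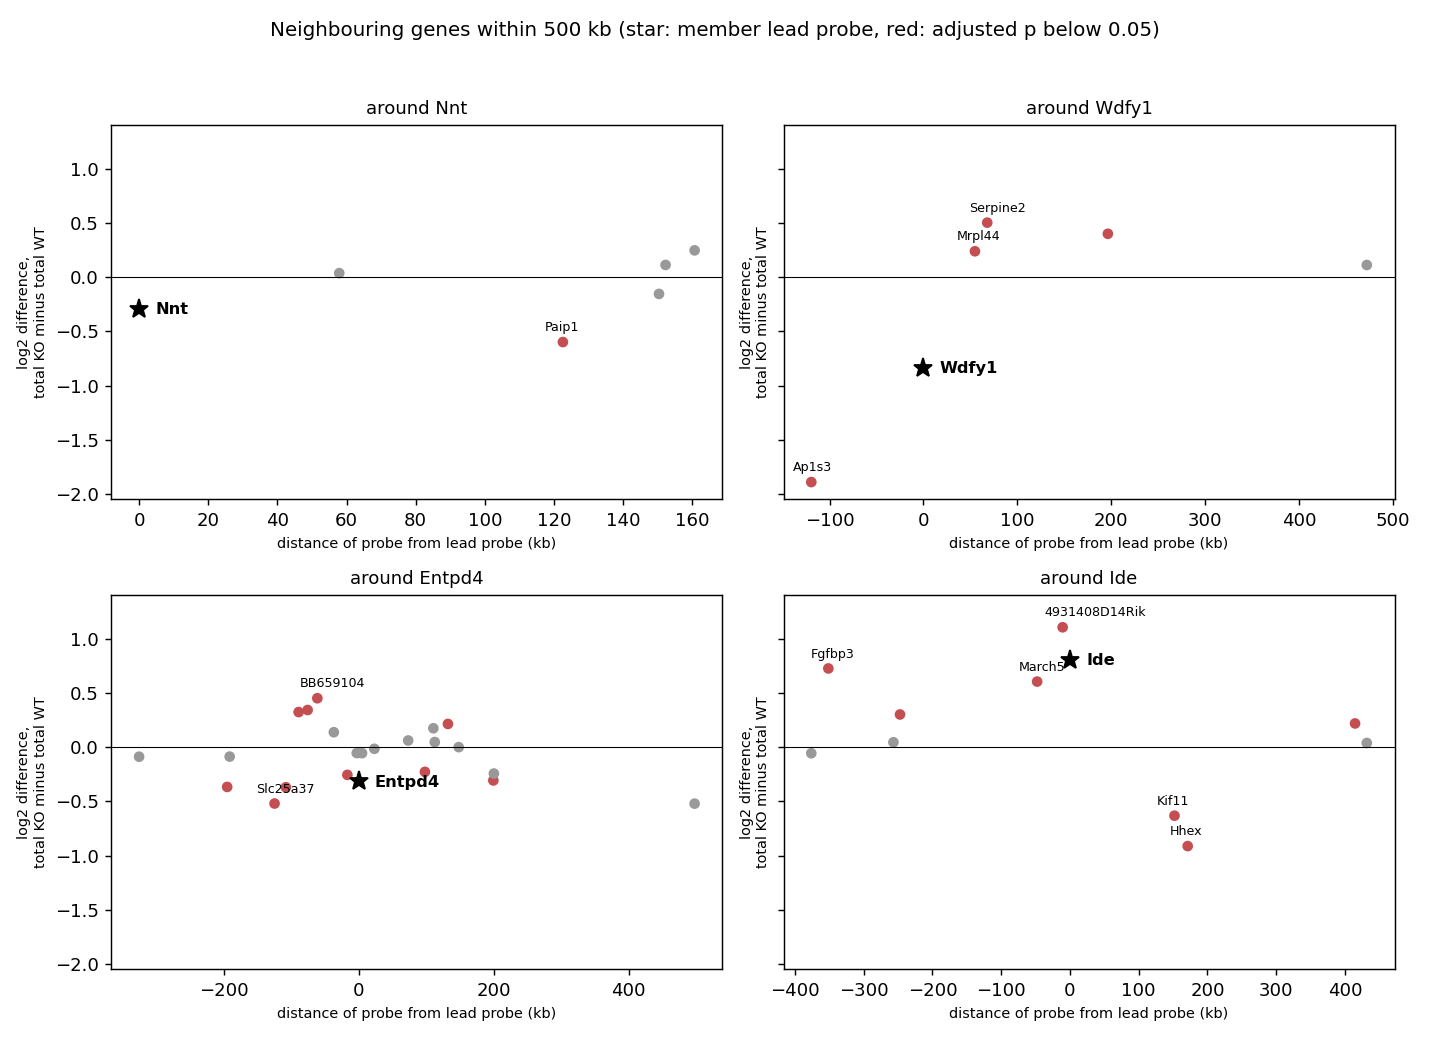
Log2 difference of total KO minus total WT (y axis) of the tested names within 500 kb, against the distance of their probe from the member's brightest probe in kb (x axis, positive toward higher coordinates); the star is the member and red marks a limma adjusted p below 0.05. Beside Ide, 4931408D14Rik (1.10), March5 (0.60), Cpeb3 (0.30) and Fgfbp3 (0.72) lie above 0, Btaf1 lies at 0.04, and Hhex and Kif11 lie below 0.

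Other genes of the same kinds were read from 5 lists. Of 8 further genes reported to vary among C57BL/6 substrains, 6 were tested. Between the wild types 5 of these 6 were called, 1 higher and 4 lower (median -1.01, against 0.03 over all genes, and 45.6% of all genes called, 26.4% higher and 19.2% lower). Cyfip2, a regulator of the actin cytoskeleton, was -2.71 in β WT minus total WT (limma adjusted p = 2.58e-06), Dock2, a guanine nucleotide exchange factor of blood cells, was -2.02 (limma adjusted p = 8.39e-05), and Mmrn1, a platelet and endothelial protein, was -1.78 (limma adjusted p = 6.9e-06). The lymphocyte markers had a median of -4.69 in this comparison, and with their score as a covariate none of the 6 was called. Of all 38832 probes, 1500 were called with the score, against 17552 without it. The score does not overlap between these groups, so the line and the score cannot be told apart there. Between total KO and total WT, 3 of 6 were called (50%, near the 45.9% of all genes): Cyfip2 (-1.92), Dock2 (-1.73) and Fgfbp3 (0.72). With the lymphocyte score as a covariate 1 of the 6 was called in this comparison. Of all 38832 probes 5902 were, against 17691 without the score.

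Of 18 genes listed around mitochondrial NADPH and peroxide metabolism, to which Nnt belongs, 11 were called between total KO and total WT, 8 higher and 3 lower (median 0.17). Of all genes 45.9% were called in this comparison, 26.2% higher and 19.7% lower, with a median of 0.05. With the lymphocyte score in the model, or with slide as a block, 6 of the 18 were called. Of all 38832 probes, 5902 and 8386 were called with these settings, in that order, against 17691 without them. The same counts stand beside the lists that follow. The adipocyte markers rose in the same comparison (median 0.49), and their part in this and the next lists was not tested. Glud1, glutamate dehydrogenase, rose by 0.88 (limma adjusted p = 3.2e-08), Me3, a mitochondrial malic enzyme, fell by 0.88 (limma adjusted p = 0.005), and Idh2, the mitochondrial NADP-dependent isocitrate dehydrogenase, rose by 0.65 (limma adjusted p = 5.7e-06). Between the wild types 7 of the 18 were called, 4 higher and 3 lower, where 45.6% of all genes were, 26.4% higher and 19.2% lower. Of 7 tested genes of the Entpd list, which holds other ectonucleotidases and the calcium-activated nucleotidase Cant1, 3 were called (42.9%, near the 45.9% of all genes), and all 3 rose in total KO: Entpd6 by 0.75, Cant1 by 0.60 and Entpd2 by 0.34. With slide as a block 1 of the 7 was called. Between the wild types 5 of the 7 were called higher in β WT, against 26.4% of all genes, with Entpd2 at 1.05 (limma adjusted p = 4.8e-08). Of 10 genes of the Wdfy family and of the TLR3 and TLR4 pathway, 4 (40%, also near that share) were called in total KO, of which Wdfy4, a gene of antigen-presenting cells, fell by 1.72 (limma adjusted p = 0.00026) while the lymphocyte markers fell as well; none of the 10 was called with the lymphocyte score as a covariate. Of 11 tested genes of peptidases like Ide, of the insulin receptor pathway and of the amyloid precursor, 8 rose in total KO and none fell (median 0.31), where 26.2% of all genes rose and the median was 0.05. Of the 11, 3 were called with the lymphocyte score in the model and 2 with slide as a block. Among the 8, App, the amyloid precursor protein, rose by 0.66 (limma adjusted p = 4.7e-06), Irs2, an insulin receptor substrate, by 0.64 (limma adjusted p = 0.02) and Irs1 by 0.55 (limma adjusted p = 0.00013).

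The genes whose brightest probes were most like each member were ranked by Pearson's r over the 26 arrays, which share groups and tissue make-up, so the values are descriptions. For Ide they were Bcat2, the mitochondrial branched-chain aminotransferase (r = 0.918), Hsd17b14, a hydroxysteroid dehydrogenase (r = 0.911), and Tppp, a tubulin-binding protein (r = 0.906). Bcat2 had a mean log2 intensity of 13.68 in total KO against 11.41, 11.58 and 11.34 in total WT, β WT and β KO. For Nnt they were Il4, Trim80 and Rab30 (r = 0.864, 0.864 and 0.859), of which Il4 was near the dim end of the scale with group means of 4.78 to 5.35. For the brightest Wdfy1 probe they were Nupr1l (r = 0.989), BC035044 (r = 0.953) and Slc16a6 (r = 0.951); the Nupr1l probe shares no run longer than 10 bases with that of Wdfy1, and its deviations from the group means followed those of Wdfy1 with r = 0.984. For Entpd4 they were Wwox (r = 0.875), Ppfibp1 (r = 0.857) and Tmem37 (r = 0.846).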

How the data were processed

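Per the labels and the methods, the authors extracted fluorescence intensity per spot with Agilent Feature Extraction 10.10.1.1 from Agilent mouse arrays of 62976 spots and used limma. The deposited scanner files hold these intensity values and flags. The authors' value table holds log2 values of 40168 probes, whose background correction and normalization were found by setting them against the scanner files. Here the median signal of each spot was taken to log2 and quantile normalized without background subtraction, over spots that passed the scanner's detection, significance and well-above-background flags on 21 or more of the 26 arrays, or in 75% of those of 1 group. This filter was scaled from that of the methods, which asked for 26 of 32 arrays. Outlier spots (1747 values) were set to missing and spots of a probe were summarised by their median. The resulting values correlated with the authors' table at r of 0.99996 or above, and member probes differed from it by at most 0.0205; the column medians of that table were 7.761 to 7.767.

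A linear model with 4 groups was fitted to all 38832 probes with limma 3.58.1 in R 4.3.3 (22 residual degrees of freedom) and p-values were adjusted by Benjamini-Hochberg over all probes at 0.05. Differences are on the log2 scale. Exact permutation tests of 44 member values were two-sided, and the smallest p is 0.000583 for 7 against 7. Genes outside the members were read by their brightest probe, and at most 3 per list and comparison were named, those with the largest called differences, beside neighbours of the members. The fit was tested on simulated data. The arrays count as replicates because the labels number them within a group; nothing states that each is a separate animal, so the p-values measure the spread between these samples. The number of arrays limits the precision. Replicate numbers did not pair the samples (3 of 6, 1 of 4, 2 of 6 and 1 of 4 pairs correlated above 0.1). Wash batch (4), slide (15) and scan day (2) were used as blocks in alternatives. Members, lists and tests were chosen with earlier results of these data known. Probe positions are those of the array annotation in mm9, and the gene models of that build were not used here.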

Additional observations from a re-analysis of the deposited data

Results flagged for a closer look

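Among the 44 combinations of probe and group, 3 held an array whose gap to its nearest neighbour exceeded Dixon's critical value, where chance gives about 1 in 20. These were β WT replicate 2 for Nnt A_55_P2144285 (10.25, the highest of its group), β WT replicate 6 for Wdfy1 A_55_P2070686 (11.65, the highest) and total WT replicate 4 for Ide A_66_P107418 (6.89, the highest). The call of β WT against total WT for Nnt A_55_P2144285 and that of total KO against total WT for Ide A_66_P107418 remained when any 1 array was left out.

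The KO effect differed between the lines on 5 member probes by the interaction term of limma. For Ide the β effect minus the total effect was -1.05 on A_52_P266530 and -0.79 on A_66_P107418. For Wdfy1 it was -0.33 on A_52_P328825 and 0.87 on A_55_P2070686, of opposite sign. For Entpd4 it was 0.44 on A_52_P582907.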

How the results depend on the processing

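Slide and tissue make-up moved the member counts most, and the counts over all probes fell with them too. With slide as a fixed block, which spends a term on each of 15 slides, the member probes called fell from 7 to 3 (total KO minus total WT), from 5 to 1 (β KO minus total KO) and from 5 to 0 (interaction). Of all 38832 probes, 8386, 1590 and 612 were called with it in these comparisons, against 17691, 10151 and 8714 without it. With the lymphocyte score as a covariate, added after seeing the data, or with the lymphocyte and muscle scores, the counts were 0 for β WT minus total WT, 3 for β KO minus total KO and 3 for the interaction. Of all probes, the lymphocyte score left 1500, 8950 and 2390 called there, and both scores 1298, 9379 and 2325. Without scores 17552, 10151 and 8714 were called. With the median signal scaled to the 75th percentile, 3 were called in β KO minus total KO, where 9240 of all probes were. The brightest Ide probe kept its calls for total KO minus total WT and β KO minus total KO in all 15 alternatives; its interaction had an adjusted p of 0.159 with slide as a fixed block. For the brightest Nnt probe, β KO minus total KO was lost with slide as a fixed block only (0.53, adjusted p 0.0516). Leaving out 1 array at a time gave 3 to 5 member calls in β KO minus total KO. The scaling to the 75th percentile changed the split of all calls in β WT minus total WT from 10003 higher of 17552 to 7830 of 17838, and the median of all probes from 0.03 to -0.07.

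The sign of a called value turned once: Wdfy1 A_55_P2070686 in β WT minus total WT was 0.21 with the lymphocyte score and 0.2104 with both scores. Other values that changed sign were not called. In β KO minus total KO, Wdfy1 A_52_P328825 (0.0011) became -0.0107 with array weights, -0.0319 with both scores, -0.0142 with the lymphocyte score, -0.0011 with median signal at the 75th percentile, -0.0025 with normexp, -0.0024 with outliers kept, -0.0034 with processed signal, -0.0105 with the replicate block, -0.0019 with the authors' table and -0.0009 with the wash batch. Wdfy1 A_51_P390314 there became 0.0033, 0.0133, 0.0118 (replicate block) and 0.1349 (slide), and Entpd4 A_51_P302222 -0.0097 (both scores). In β WT minus total WT, Nnt A_55_P2008956 became -0.0419, -0.03, -0.0285, -0.1978 and -0.0013 (weights, both scores, lymphocyte score, median and processed signal), Nnt A_55_P2829145 -0.058 (median signal), Ide A_66_P107418 -0.1057, -0.1311, -0.0856 and -0.0339 (both scores, lymphocyte score, median and processed signal), Ide A_52_P266530 -0.0104 (lymphocyte score), Wdfy1 A_51_P390314 -0.0656 and Entpd4 A_51_P302222 0.0181 (slide). In β KO minus β WT, Wdfy1 A_51_P390314 became 0.0069 (weights), 0.0322 (replicate block) and 0.05 (slide), Entpd4 A_55_P1992505 -0.0086, -0.0144, -0.011, -0.0074, -0.0744 and -0.0377 (weights, median signal, processed signal, replicate block, slide, wash batch), Entpd4 A_51_P302222 -0.0209, -0.0462 and -0.0164 (replicate block, slide, wash batch), Nnt A_55_P2008956 0.0299 (median signal), Nnt A_55_P2144285 0.0351 (wash batch) and Ide A_66_P107418 0.0257 (slide). With slide, Wdfy1 A_51_P390314 was -0.1505 in total KO minus total WT and 0.2005 in the interaction.

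Leaving out single arrays changed the sign of 10 uncalled values. In β KO minus β WT the ranges were -0.1562 to 0.0127 (Nnt A_55_P2008956), -0.0888 to 0.0498 (Nnt A_55_P2144285), -0.0442 to 0.0695 (Wdfy1 A_51_P390314), -0.052 to 0.1559 (Wdfy1 A_55_P2070686) and -0.0165 to 0.0389 (Entpd4 A_55_P1992505). In β WT minus total WT they were -0.0547 to 0.066 (Nnt A_55_P2008956) and -0.1121 to 0.0153 (Entpd4 A_51_P302222). In β KO minus total KO they were -0.0753 to 0.0569 (Wdfy1 A_51_P390314), -0.0187 to 0.0396 (Wdfy1 A_52_P328825) and -0.027 to 0.1203 (Wdfy1 A_55_P2070686).

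For the 43 neighbours, counts are named T (total KO minus total WT), W (β WT minus total WT), K (β KO minus total KO) and I (interaction), and 22, 19, 14 and 9 were called. Slide as a fixed block gave 12, 12, 2 and 0. The lymphocyte score gave 6, 3 and 3 (T, W and I) and both scores 6, 3 and 2. The calls over all probes fell with these settings as well, here and for the lists below. Within 1000 kb, which takes in 82 genes, the counts were 46, 37, 26 and 22. The cause of the other changes was not tested.

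For the lists in the order T, W, K and I, slide as a fixed block left 1 in K and 0 in I of the substrain genes, 6, 3 and 0 (T, K, I) of the mitochondrial genes, 1, 3, 0 and 0 of the Entpd list, 1, 3, 0 and 0 of the Wdfy and TLR list, and 2, 3, 1 and 0 of the insulin and amyloid list. With either set of scores the substrain genes had 1, 0 and 1 called (T, W, I), the mitochondrial genes 6, 1 and 4, the Wdfy and TLR list 0, 0, 1 and 0, and the insulin and amyloid list 3, 0 and 0. The Entpd list had 1 in W, and 3 in K with the lymphocyte score, without the filter, with only the groups compared and with the replicate block. The replicate block also gave 2 for the Wdfy and TLR list (T) and 2 for the insulin and amyloid list (K). Processed signal gave 4 mitochondrial and 4 Wdfy and TLR genes (W). The Wdfy and TLR interaction count of 1 became 2 with array weights, median or processed signal and scan day as a block, and its K count became 1 with median signal. Leaving out 1 array gave 2 to 5 (T), 1 to 3 (K) and 0 to 2 (I) for the Wdfy and TLR list, 2 to 5 for the Entpd list (K), 2 to 6 (K) and 3 to 5 (I) for the insulin and amyloid list, and 4 to 10 for the mitochondrial genes (I).

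The replicate block, whose numbers do not pair the samples, left 15975 of 38832 probes called in total KO minus total WT, against 17691 without it, and lost 1 member call, that of Entpd4 A_52_P582907 between the knockouts (adjusted p 0.128). The interaction uses all groups, so the setting with only the groups compared does not apply to it. Scan day as a fixed block was also added after seeing the data.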
